A study of Bos taurus with 28 samples.

Results

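ENSBTAT00000048580 and ENSBTAT00000005399 are 2 of the 28054 bovine transcripts measured by mRNA sequencing in conceptuses of 5 ages. Both were chosen by their RPKM values, which were high on day 10, low on day 13 and high again later, so the differences that involve those days describe the choice and carry no test. The identifiers are those of Ensembl bovine transcripts, and 0 of the 28054 matched the RefSeq gene table used here (37063 genes), so neither transcript is given a gene name, a position or a sequence. By the lengths recovered from the deposited values they measure 1018 and 805 nucleotides, in that order.

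The conceptus is the embryo together with the membranes that it forms. In cattle the blastocyst leaves the zona pellucida as a sphere, becomes ovoid and then lengthens into a filament before it attaches to the uterus. Most of that growth is in the trophectoderm, the outer layer that faces the uterus and that secretes interferon tau, the signal by which the mother recognises pregnancy. A measurement on a whole conceptus mixes its layers, so fewer cells of a type and less RNA per cell cannot be told apart in any level given here.

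All conceptuses came from crossbred beef heifers, mainly Charolais and Limousin, about 18 months old, with synchronised cycles and inseminated from 1 bull. By label there were 6 libraries of day 7 (blastocyst), 7 of day 10 (hatched embryo), 5 of day 13 (elongated embryo, ovoid in the protocol), 5 of day 16 (maternal recognition of pregnancy) and 5 of day 19 (implantation). Per the labels' protocols, heifers of days 7 and 10 were superovulated with FSH and their embryos pooled by 5, while later conceptuses were taken singly without superovulation. The sample characteristics of day 13 state a pool and superovulation instead, and that disagreement was not settled here. Polyadenylated RNA was taken directly on days 7, 10 and 13 but from purified total RNA on days 16 and 19, so in any comparison of days 16 and 19 with an earlier day the effect of stage and that of RNA preparation cannot be told apart. Pooling and superovulation differ in the same way between days 7 and 10 and the late days. By the protocols they also differ between days 7 and 10 and day 13. In those comparisons, the fall from day 10 to day 13 included, stage cannot be told apart from pooling and superovulation. The labels do not name the heifer of each library, so each p-value speaks only of the spread among these libraries, which may be technical in part.

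In 3 libraries the label and the file name or its title give different days, and they are shown apart: day 7 replicate 6, day 16 replicate 5 and day 19 replicate 5. Replicates 2 and 3 of day 16 differed by little more than sampling noise (mean chi-square of 1.19 per transcript, where noise alone gives 1) and were counted as 1 sample. This left 24 replicates: 5, 7, 5, 3 and 4 on days 7, 10, 13, 16 and 19. Totals ran from 473552 to 10871501 reads per library. The 92-nucleotide transcript ENSBTAT00000042502, which had the highest level in 22 of 28 libraries, took 38.4% of the reads of day 10 replicate 7 and 34.3% of day 7 replicate 5, and at most 5.11% elsewhere.

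Levels are RPKM, reads scaled to the length of the transcript and the total of the library, so both transcripts can be compared with each other. On day 7, ENSBTAT00000048580 was at 497, 283, 140, 887 and 1892 RPKM in replicates 1 to 5. On day 10 it was at 599, 932, 1044, 476, 489, 729 and 2149 RPKM in replicates 1 to 7. These early days overlapped widely, and the highest library of each day was the one rich in the 92-nucleotide transcript.

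On day 13 the level of ENSBTAT00000048580 was 6.80, 4.96, 2.97 and 5.67 RPKM in replicates 1 to 4, and 431 RPKM in replicate 5. The 4 low values rest on 45, 30, 14 and 31 reads among 4636213 to 6500130, so each of these libraries held some reads assigned to the transcript. Whether those reads came from the conceptuses themselves was not tested. The lowest of the 4 values had a 95% exact Poisson interval of 1.62 to 4.98 RPKM, which covers counting error only.

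By day 16 ENSBTAT00000048580 was at 965 RPKM in replicate 1, 1068 in the sample made of replicates 2 and 3, and 1183 in replicate 4. On day 19 it was at 932, 1035, 1827 and 1181 RPKM in replicates 1 to 4. All 7 late replicates lay above all 5 of day 13, replicate 5 included, as in 5.93% of the 19186 transcripts tested. The choice of the pair used these days, so nothing is read from that.

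ENSBTAT00000005399 followed the same course from a higher start. It was at 1156, 267, 213, 4599 and 3749 RPKM in day 7 replicates 1 to 5, and at 1346, 3146, 2989, 533, 510, 2544 and 4212 RPKM in day 10 replicates 1 to 7. Low and high libraries of 1 day differed 21.6-fold on day 7 and 8.27-fold on day 10. The corresponding spans of ENSBTAT00000048580 were 13.5-fold and 4.52-fold.

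On day 13 ENSBTAT00000005399 was at 57.0, 30.3, 17.1 and 34.5 RPKM in replicates 1 to 4, on 298, 145, 64 and 149 reads. Replicate 5 was again the highest, at 282 RPKM. The later levels were 836, 923 and 867 RPKM on day 16, and 865, 791, 1219 and 900 RPKM on day 19. These 7 values also lay above all 5 of day 13, but the highest of them, 1219 RPKM, was exceeded in 7 of the 12 early libraries.

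**Figure D1:**
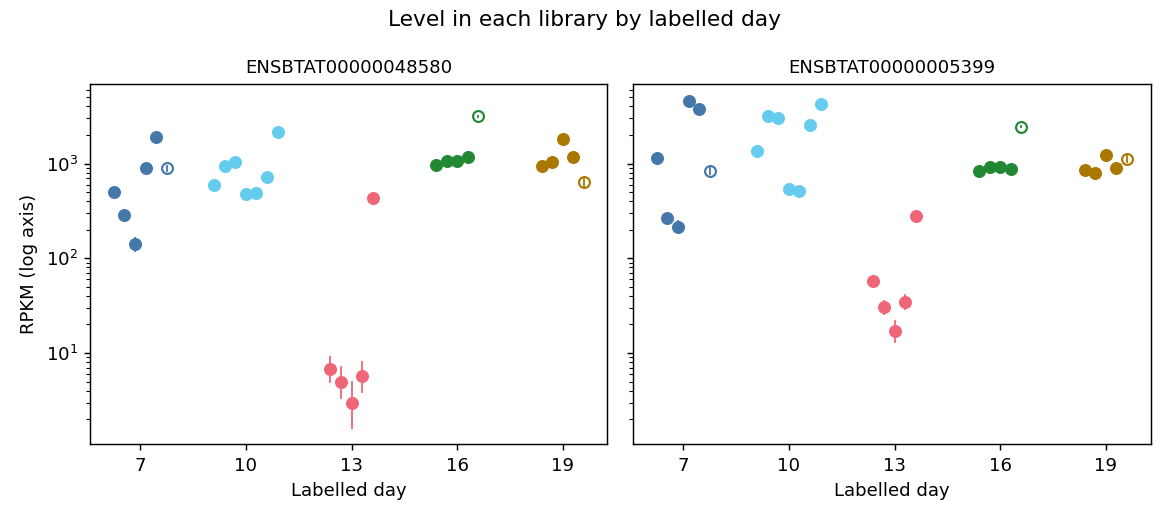
Level of each transcript (RPKM, log axis) in every library by labelled day; filled points are libraries in the comparisons (day 16 replicates 2 and 3 drawn singly), open points the 3 libraries shown apart, bars 95% Poisson intervals. Day 13 replicates 1 to 4 lie at 2.97 to 6.80 RPKM (left) and 17.1 to 57.0 RPKM (right), while day 13 replicate 5 lies at 431 and 282 RPKM.

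In the order of abundance within a library, where 1 is the highest of 28054 transcripts, ENSBTAT00000048580 held places 9133 to 12063 in day 13 replicates 1 to 4. It was in place 188 in replicate 5, in places 12 to 861 on days 7 and 10 and in places 36 to 108 on days 16 and 19. ENSBTAT00000005399 held places 1958 to 5937 in day 13 replicates 1 to 4 and place 302 in replicate 5. On the early days it reached place 5, in day 7 replicate 4, and on the late days it held places 83 to 134. Together the pair took 0.558% of the reads of day 10 replicate 7, the largest share among the 25 libraries not shown apart, and 0.00168% of day 13 replicate 3, the smallest.

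The mean of ENSBTAT00000048580 was highest on day 19, at 1244 ± 402 RPKM (SD, n = 4). Day 16 followed with 1072 ± 109 RPKM (n = 3), day 10 with 917 ± 584 (n = 7), day 7 with 740 ± 703 (n = 5) and day 13 with 90.3 ± 191 (n = 5). Each of the first 3 steps down this order was smaller than the SD of at least 1 of the neighbouring days. Without replicate 5 the day 13 mean was 5.10 ± 1.61 RPKM (n = 4). Replicate 5 therefore set the day 13 mean, and it was 63.4 times the highest of the other 4.

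ENSBTAT00000005399 had another order, with the early days above the late ones. Day 10 had 2183 ± 1417 RPKM (SD, n = 7), day 7 had 1997 ± 2045 (n = 5), day 19 had 944 ± 189 (n = 4), day 16 had 875 ± 43.8 (n = 3) and day 13 had 84.2 ± 112 (n = 5). Here too, neighbours above day 13 did not differ beyond their spread. Without replicate 5 the day 13 mean was 34.73 ± 16.56 RPKM (n = 4), and replicate 5 was 4.96 times the highest of the other 4.

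Differences between days were estimated with limma on log2(RPKM + 1), in 1 model of all 5 days over 19186 transcripts. From day 10 to day 13 the estimates were -5.84 ± 0.77 (SE) for ENSBTAT00000048580 and -5.05 ± 0.70 for ENSBTAT00000005399, and 12 of the 19186 transcripts (0.0625%) had an estimate of -5 or lower. From day 13 to day 16 they were 6.26 ± 0.96 and 4.11 ± 0.88, and from day 13 to day 19 they were 6.43 ± 0.88 and 4.20 ± 0.81. These comparisons hold the values that chose the pair and share the day 13 replicates, so they are descriptions. In both transcripts all 5 day 13 replicates lay below all 7 of day 10, as in 0.328% of those tested. Without day 13 replicate 5 the day 10 to day 13 estimates were -7.08 and -5.67.

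Against day 10, the late levels of the 2 transcripts had opposite signs. The log2 difference from day 10 to day 16 was 0.41 ± 0.91 (SE) for ENSBTAT00000048580 and -0.94 ± 0.83 for ENSBTAT00000005399; to day 19 it was 0.58 ± 0.83 and -0.85 ± 0.75. The estimates for day 10 against day 7 were 0.66 ± 0.77 and 0.71 ± 0.70. Each of these 6 differences was close to or below its SE, and none was tested because day 10 entered the choice. These SEs draw on the spread of all 5 days in the model, day 13 replicate 5 included, and not only on the days compared.

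The late levels belong to the choice of the pair too, so their differences from day 7 and from each other are given as estimates and nothing is read from the calls. A call needed a limma p under 0.05 after Benjamini-Hochberg adjustment over all transcripts and a log2 difference of at least 1. Of the 2 transcripts, 0 were called between day 7 and day 16, where 4.33% of all transcripts were called, 0 between day 7 and day 19 (6.79% of all), and 0 between day 16 and day 19 (0.235% of all). ENSBTAT00000048580 was 1.08 higher on day 16 than on day 7 on the log2 scale (95% interval -0.90 to 3.05) and 1.24 higher on day 19 than on day 7 (-0.57 to 3.06). It was called against day 7 under 2 settings chosen after the data were seen, both of which also called more of all transcripts (closing section).

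For ENSBTAT00000005399 the difference from day 7 was -0.23 on day 16 (95% interval -2.03 to 1.57) and -0.14 on day 19 (-1.79 to 1.51). From day 16 to day 19 the differences were 0.17 for ENSBTAT00000048580 (-1.90 to 2.24) and 0.09 for ENSBTAT00000005399 (-1.79 to 1.97). The intervals are wide and still allow differences of more than 1 in either direction between days 16 and 19. Their width draws on the spread of all 5 days in the model, day 13 replicate 5 included. On the log2 scale the SD of ENSBTAT00000048580 was 0.15 on day 16 and 0.43 on day 19, against 1.45 on day 7 and 2.79 on day 13. For ENSBTAT00000005399 it was 0.07 and 0.27, against 2.07 and 1.51.

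The balance between the 2 transcripts was measured in each library as the log2 ratio of ENSBTAT00000048580 to ENSBTAT00000005399, in which the library total cancels. On day 7 the ratio was -1.22, 0.08, -0.60, -2.37 and -0.99 in replicates 1 to 5, and on day 10 it was -1.17, -1.76, -1.52, -0.16, -0.06, -1.80 and -0.97 in replicates 1 to 7. ENSBTAT00000005399 was thus the more abundant of the pair in 11 of 12 early libraries, by up to 5.18-fold. In day 7 replicate 2, the exception, the 95% exact binomial interval of the ratio was -0.02 to 0.19 and included 0. The interval of day 10 replicate 5, -0.14 to 0.03, included 0 as well.

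On day 13 the ratio was -3.07, -2.61, -2.53 and -2.60 in replicates 1 to 4 and 0.61 in replicate 5. In the first 4, ENSBTAT00000048580 stood 5.78 to 8.37 times below its partner. The low read counts make these ratios imprecise: in replicate 3, on 14 and 64 reads, the interval ran from -3.48 to -1.68. It still did not reach the 0.40 to 0.82 of replicate 5.

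On the late days the order of the pair was the other way round. The ratio was 0.21, 0.21 and 0.45 in the 3 samples of day 16 and 0.11, 0.39, 0.58 and 0.39 in day 19 replicates 1 to 4, so ENSBTAT00000048580 was the more abundant in all 7. The SD over these 7 was 0.17, against 0.76 over the 12 early libraries. Mean ratios were -1.02 ± 0.90 for day 7 (SD, n = 5), -1.06 ± 0.72 for day 10 (n = 7), -2.040 ± 1.497 for day 13 (n = 5; without replicate 5, -2.70 ± 0.24, n = 4), 0.29 ± 0.14 for day 16 (n = 3) and 0.37 ± 0.20 for day 19 (n = 4).

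**Figure D2:**
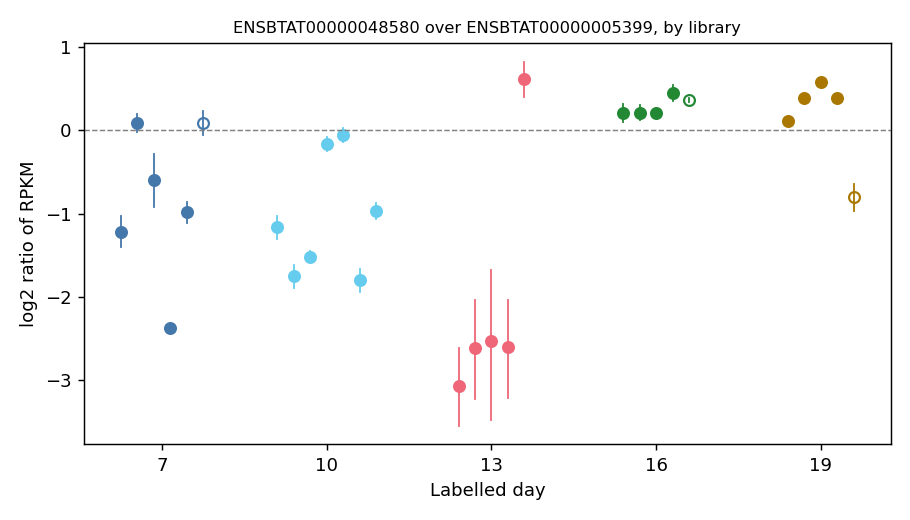
Log2 ratio of ENSBTAT00000048580 to ENSBTAT00000005399 in every library by labelled day; filled points are libraries in the comparisons, open points those shown apart, bars 95% exact binomial intervals from the reads of both. Filled points of days 16 and 19 lie at 0.11 to 0.58, day 13 replicates 1 to 4 at -3.07 to -2.53 and day 13 replicate 5 at 0.61.

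The mean ratio on day 19 was 1.43 above that on day 10 and 1.39 above that on day 7. The mean ratio on day 16 was 1.35 above that on day 10 and 1.31 above that on day 7. In each of these 4 pairs of days the groups did not overlap. Other pairs of transcripts were not examined for this. Against day 7 the gap lay within counting error. Day 7 replicate 2 was at 0.08 (95% exact binomial interval -0.02 to 0.19). Day 19 replicate 1 was at 0.11 (0.05 to 0.17) and day 16 replicate 1 at 0.21 (0.10 to 0.31). That the late levels relate to day 10 differently in the 2 transcripts was known before this ratio was computed, and both transcripts were chosen by these levels, so the differences are descriptions. The planned exact permutation tests over the 10 pairs of days passed 0.05 after adjustment in 0 pairs (4 before adjustment), and some passed under alternatives (closing section), but nothing is read from either.

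Within day 10, the only day with at least 6 replicates in the comparisons, both transcripts varied together. Day 10 levels entered the choice of the pair, and other pairs of transcripts were not tested, so nothing is read from the p-values below. With day means removed, the pair correlated at 0.823 over the 24 replicates. That was place 17 among all transcripts tested for ENSBTAT00000048580 and place 5 for ENSBTAT00000005399. The value and both places include day 13 replicate 5. That library was at 8.76 for ENSBTAT00000048580 on the log2 scale, against a day 13 mean of 3.80, and its part in the correlation was not tested. Over the 7 replicates Pearson's r of log2(RPKM + 1) was 0.859 (exact permutation of pairings, p = 0.00774) and Spearman's rho was 0.929 (p = 0.00675). Without replicates 4 and 7, the 2 farthest from the median of ENSBTAT00000048580, r was 0.921 (exact permutation, p = 0.0167, n = 5) and rho was 0.9 (exact permutation, p = 0.0833). Replicates 4 and 5 had nearly the same levels and a mean chi-square of 4.49 per transcript, the lowest of any pair of a day that was not merged. With them as 1 sample, r was 0.834 (exact permutation, p = 0.0486, n = 6), and without replicate 4 it was 0.827 (p = 0.0556, n = 6).

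**Figure D3:**
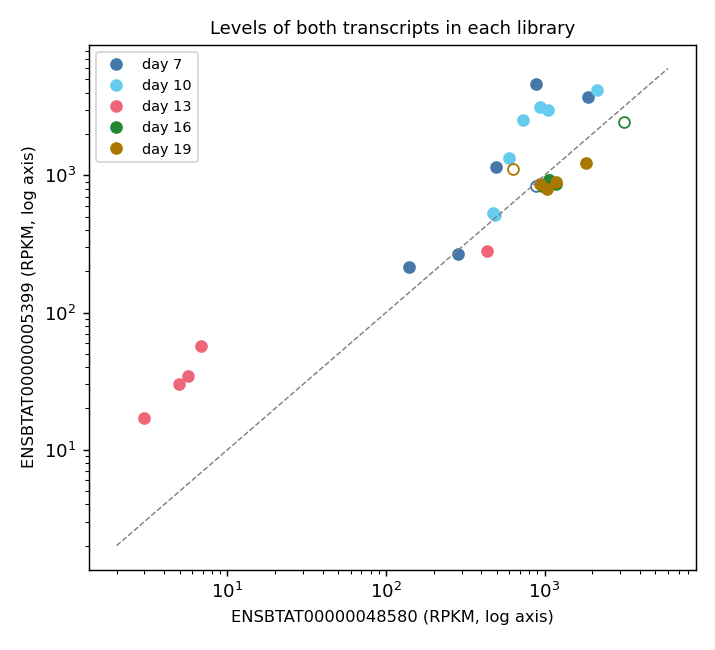
ENSBTAT00000005399 against ENSBTAT00000048580 (RPKM, both axes log) in every library, coloured by labelled day, with open points for the 3 libraries shown apart; the dashed line marks equal levels. Day 13 replicates 1 to 4 form the low group above the line, and the filled points of days 16 and 19 and day 13 replicate 5 lie below it.

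Among the early libraries, those with a ratio near 0 were also the deepest. Day 7 replicate 2 and day 10 replicates 4 and 5 held 5882457, 5106242 and 5202316 reads and had ratios of 0.08, -0.16 and -0.06, while the other 9 held 473552 to 3300915 reads and had ratios of -2.37 to -0.60. The part of depth in the ratio was not tested. Day 13 replicates 1 to 4, with 4636213 to 6500130 reads, had the lowest ratios of all.

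Day 13 replicate 5 had 1232705 reads and 14024 transcripts with a read, against 4636213 to 6500130 reads and 17612 to 17850 transcripts in the other 4 of its day. Of the 19186 transcripts, 102 had day 13 replicates 1 to 4 all below every replicate of the other days, and in 93 of those replicate 5 was not below the lowest of the other days. Both transcripts belong to the 93. The 102 were picked with replicate 5 left out, and no other day 13 replicate was left out of this count for comparison. ENSBTAT00000048580 had the second widest gap of the 102, 4.18 on the log2 scale, and ENSBTAT00000005399 came in place 13 with 1.88. These gaps hold the values that chose the pair, so the counts and places are descriptions. What sets replicate 5 apart was not tested.

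In the libraries shown apart, day 16 replicate 5 had the highest ENSBTAT00000048580 of all 28, at 3153 RPKM, and 2456 RPKM of ENSBTAT00000005399, with a ratio of 0.36. Its file carries the title of a day 19 sample. Day 19 replicate 5, whose file is titled for day 7, was at 637 and 1114 RPKM with a ratio of -0.81, below the 0.11 to 0.58 of the other day 19 libraries. Day 7 replicate 6, whose file name carries day 7 but a title used for day 16, was at 887 and 836 RPKM with a ratio of 0.09.

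The transcripts most like each of the pair were found by Pearson correlation of log2(RPKM + 1) over the 24 replicates, a description in which all points share the libraries and the low day 13 values weigh heavily. The pair correlated with each other at 0.923. For ENSBTAT00000005399 that was the closest of all transcripts tested, but for ENSBTAT00000048580 it was only the tenth closest. In all, 13 transcripts reached 0.9 with ENSBTAT00000048580 and 5 with ENSBTAT00000005399, against medians of -0.09 and -0.10 over all tested. These places depended on day 13. With day 13 left out, the pair correlated at 0.708, in place 53 for ENSBTAT00000048580 and place 38 for ENSBTAT00000005399.

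ENSBTAT00000034280 (787 nucleotides) and ENSBTAT00000016233 (1189 nucleotides) were closest to ENSBTAT00000048580, with r of 0.964 and 0.963. ENSBTAT00000034280 had 0, 4, 0 and 1 reads in day 13 replicates 1 to 4 and 80.4 RPKM in replicate 5, and its day 10 mean was 114 ± 45.5 RPKM (SD, n = 7) against 334 ± 71.9 RPKM for day 16 (n = 3). ENSBTAT00000016233 was at 0.907 to 5.01 RPKM in the same 4 replicates, at 414 in replicate 5, and at 558 ± 208 on day 10 and 1576 ± 505 on day 16. Both had day 16 means above their day 10 means, as ENSBTAT00000048580 had. Leaving out day 13 altogether, they correlated with ENSBTAT00000048580 at 0.676 and 0.661, in places 79 and 89.

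Next to its partner, ENSBTAT00000028551 (1553 nucleotides, r = 0.922) and ENSBTAT00000018774 (3489 nucleotides, r = 0.920) were closest to ENSBTAT00000005399. ENSBTAT00000028551 was at 145 and 109 RPKM in day 7 replicates 2 and 3 and at 273 and 258 RPKM in day 10 replicates 4 and 5, and at 754 to 2256 RPKM in the other 8 early libraries. The same 4 libraries were the lowest of their days for ENSBTAT00000005399, and also for ENSBTAT00000048580. Leaving out day 13 altogether, ENSBTAT00000028551 and ENSBTAT00000005399 still correlated at 0.848 over 19 replicates, in place 6 for ENSBTAT00000005399. ENSBTAT00000048580 and ENSBTAT00000005399 then correlated at 0.708. ENSBTAT00000018774 was at 435 ± 237 RPKM on day 10, at 32.5 to 51.9 in day 13 replicates 1 to 4 and at 424 ± 74.4 on day 16. Without day 13 it correlated with ENSBTAT00000005399 at 0.723, in place 31.

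**Figure D4:**
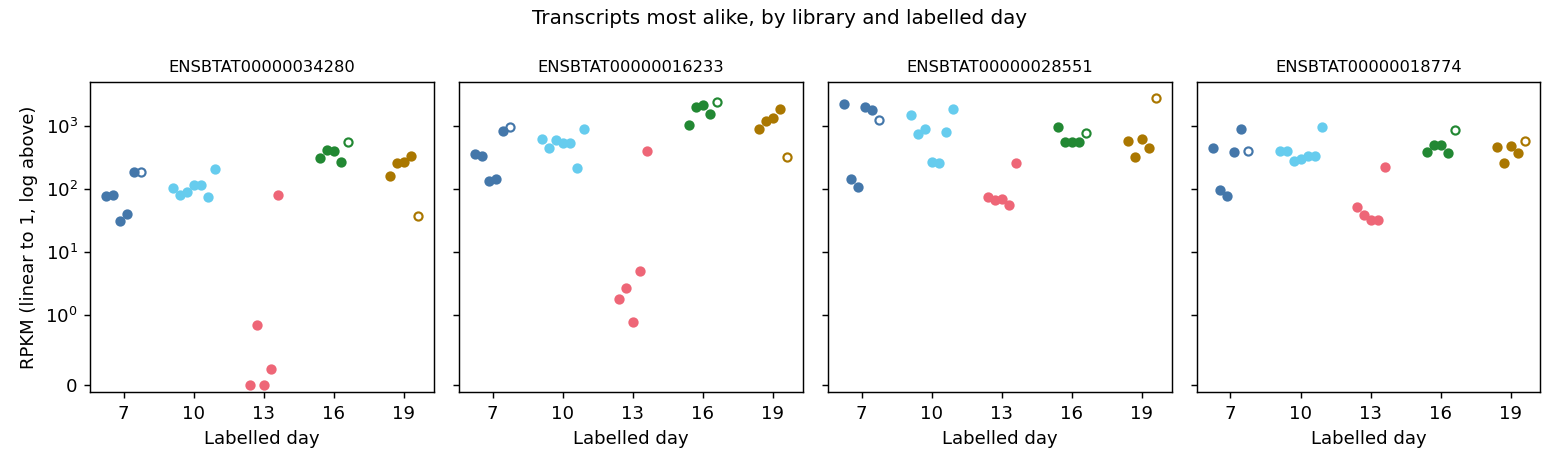
RPKM (linear to 1, log above) in every library by labelled day for the 4 transcripts closest to the pair, the 2 left panels for ENSBTAT00000048580 and the 2 right for ENSBTAT00000005399; open points are the libraries shown apart. In all 4 panels day 13 replicates 1 to 4 are low and replicate 5 is higher, at 80.4 RPKM in the first panel and 414 in the second.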

How the data were processed

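The authors deposited 1 RPKM value per transcript and library. The submitters' processing notes name CASAVA with no version or role; the aligner, annotation and genome build were not given in the sources used here. Values above 0 were whole reads scaled by transcript length and library total. Of them, 100.0% came out whole within 0.001 read, and this gave reads, lengths and totals. Groups follow the labels. In 12 libraries, day 16 replicate 5 and all those of days 19 and 7, the file carries another sample's title, as the file names are shifted against the sample titles. The 3 where days conflict were left out of comparisons. In the rest of the 12 the days agree, but which replicate of its day each file belongs to was not settled. Libraries of a day with a mean chi-square under 1.5 per transcript (at least 10 reads in the pair) became 1 sample, with their mean RPKM. limma 3.58.1 (R 4.3.3; trend and robust) was fitted to log2(RPKM + 1) for transcripts of at least 1 RPKM in at least 4 replicates, and checked on simulated data. Fold changes on that scale understate those of low levels. Exact tests used scipy 1.17.1. The members, limits and tests were chosen with earlier results of these data known. Beside the pair, the text names, by rule, the 2 transcripts with the highest correlation with each member and the most abundant transcript. Alternatives were the pseudocount, filter, normalization and samples; 4 were added after the data were seen: voom on recovered reads, leaving out the libraries rich in 1 transcript, leaving out those together with day 13 replicate 5, and day 10 replicates 4 and 5 as 1 sample.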

Additional observations from a re-analysis of the deposited data

Results flagged for a closer look

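In 12 groups of 4 to 7 replicates (levels of both transcripts and their ratio on days 7, 10, 13 and 19), 2 had a replicate far from the others. Chance flags about 1 in 20 groups. Day 13 replicate 5 was that replicate in both, and the ratio contains the same value of ENSBTAT00000048580, so they are 1 deviation: ENSBTAT00000048580 was at 8.76 there on the log2(RPKM + 1) scale, and the log2 ratio of the pair was 0.61. For ENSBTAT00000005399 the same replicate was the highest of day 13 but within the limit.

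The 3 libraries left out of the comparisons also held both transcripts, well above the level that 3 reads would give (0.288 to 4.46 RPKM). ENSBTAT00000048580 was at 3153 RPKM in day 16 replicate 5, at 637 in day 19 replicate 5 and at 887 in day 7 replicate 6. ENSBTAT00000005399 was at 2456, 1114 and 836 RPKM in the same libraries.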

How the results depend on the processing

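No paired analysis was possible because the labels give no replicate numbers shared between days. The log2 differences that carry no test each moved by less than the spread between replicates in the alternatives run. For differences with day 13 that spread includes day 13 replicate 5, so it is a loose limit. Without that replicate ENSBTAT00000048580 went from -5.84 to -7.08 (day 13 against day 10). Its day 13 SD on the log2 scale was 2.79 with the replicate and 0.42 without. Where a result below changed, the cause was not tested, except that fewer samples entered where libraries were left out.

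Tested differences near 0 changed sign. ENSBTAT00000005399 against day 7 was 0.15 on day 19 with median centring, 0.0044 on day 19 with voom, 0.19 on day 16 with all 28 libraries as labelled, and 0.24 on day 16 and 0.33 on day 19 without the 2 libraries rich in ENSBTAT00000042502, whether or not day 13 replicate 5 was left out too. From day 16 to day 19 the differences were -0.40 for ENSBTAT00000048580 and -0.23 for ENSBTAT00000005399 with all 28 libraries. Leaving out 1 replicate at a time, ENSBTAT00000005399 ran from -0.80 to 0.31 (day 16 against day 7) and from -0.71 to 0.40 (day 19 against day 7), and from day 16 to day 19 the ranges were -0.032 to 0.29 for ENSBTAT00000048580 and -0.040 to 0.17 for ENSBTAT00000005399. Under settings chosen after the data were seen, ENSBTAT00000048580 gained a call against day 7: with voom (1.38 on day 19, where 21.9% of all transcripts were called) and without the 2 rich libraries and day 13 replicate 5 (1.55 on day 16, with 10.5% called, and 1.72 on day 19, with 13.7%). Without 1 replicate its differences were 0.61 to 1.55 on day 16 and 0.78 to 1.72 on day 19.

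The number of transcripts called depended on the samples. For day 16 against day 7 it was 831, and 549 with a pseudocount of 0.1, 1379 with quantile normalization, 1762 with day 16 replicates 2 and 3 separate, 1612 with voom, 1505 without the 2 rich libraries, 1942 without these and day 13 replicate 5, 185 in the model of these days alone, and 4 to 1332 without 1 replicate. For day 19 against day 7 it was 1303, and 4201 with voom, 2148 without the 2 rich libraries, 2533 without these and day 13 replicate 5, and 545 to 1844 without 1 replicate. For day 19 against day 16 it was 45, and 302 without the filter, 20 with median centring, 78 with day 16 replicates 2 and 3 separate, 1182 with voom, 27 in the model of these days alone, and 0 (day 16 replicate 4 left out; limma p under 0.05 before adjustment for 483) to 249 (day 7 replicate 1 left out) without 1 replicate. With all 28 libraries as labelled limma called 0 in each comparison, with an unadjusted p under 0.05 for 2952, 2239 and 155 transcripts in the same order.

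The ratio tests use values that chose the pair and are not read as evidence. The differences in ratio that passed 0.05 only under an alternative were, with all 28 libraries, 1.14 (day 16 against day 7) and 1.37 (day 16 against day 10). With day 16 replicates 2 and 3 separate they were 1.29 and 1.39 (days 16 and 19 against day 7) and 1.33 and 1.43 (days 16 and 19 against day 10). Without day 13 replicate 5 alone they were -1.68 (day 13 against day 7), -1.64 (day 13 against day 10) and 1.39 (day 19 against day 7). In that setting 1.35 (day 16 against day 10), 1.43 (day 19 against day 10) and 3.07 (day 19 against day 13) passed too. Without the 2 rich libraries and day 13 replicate 5 they were -1.68 (day 13 against day 7), -1.63 (day 13 against day 10), 1.40 (day 19 against day 7), 1.37 (day 16 against day 10), 1.45 (day 19 against day 10) and 3.07 (day 19 against day 13). The ratio on day 19 was -0.17 relative to day 16 with all 28 libraries. Without 1 replicate at a time the ratio differences ran from -0.38 to 0.23 (day 10 against day 7), -1.68 to -0.75 (day 13 against day 7), 1.05 to 1.66 (day 19 against day 7), -1.64 to -0.72 (day 13 against day 10), 1.23 to 1.52 (day 16 against day 10), 1.31 to 1.60 (day 19 against day 10) and 2.15 to 3.07 (day 19 against day 13). The correlation within day 10 ran from 0.827 to 0.944. The day 13 ratios of replicates 1 to 4 rest on 14 to 45 reads of ENSBTAT00000048580.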
